A study of Homo sapiens with 8 samples.

Results

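The regions described here are stretches of chromatin in which ATAC-seq peaks were called after every drug treatment of U-937 cells and none was called after the vehicle. They were chosen by the calls themselves: overlapping peaks of 4 peak lists were merged into union regions on chromosomes 1 to 22, X and Y, and a member is a union region overlapped by a peak of the ATRA list, of the Corin list and of the combination list, and by no peak of the DMSO list. This gave 1536 members among 161291 union regions (0.952%). ATAC-seq uses a transposase that cuts and tags accessible DNA, so that a peak marks an accessible stretch. U-937 is a human acute myeloid leukaemia cell line with monocytic features. Its cells were given DMSO (the vehicle), ATRA at 0.1 µM, Corin at 0.1 µM, or ATRA and Corin at 0.1 µM each (the combination), and all 4 groups were collected after 24 h. Each group had 2 samples, 8 in all, and the authors pooled them into 1 peak list per group, so no replicate error can be given for any value below and no treatment was tested against another. All groups are 1 cell line, the files hold no expression values against which the line could be checked, and positions are on the human build hg38.

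ATRA, all-trans retinoic acid, activates the retinoic acid receptors (RAR), which bind DNA as partners of the retinoid X receptors at direct repeats of a short half-site. On ATRA, myeloid leukaemia cells can leave the cycle and mature along the granulocytic or monocytic line. Corin inhibits the CoREST co-repressor, which joins a histone demethylase (LSD1) with histone deacetylases and is brought to DNA by factors such as GFI1, a repressor of myeloid genes. PU.1 and the C/EBP proteins are the factors that establish the enhancers of myeloid cells, and AP-1 (dimers of FOS and JUN proteins) acts at many enhancers that respond to signals.

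The sequences below are 200 bp of the plus strand of hg38, centred on the strongest summit of a member. They are shown because the results turn on the motifs they hold or lack, and capitals mark matches to the consensus sequences searched. Of the 8 members that ranked highest in all 3 lists at once, those at SLC6A6 (C/EBP), ANKRD11 (E-box), PAX8 and ADCY4 had a match to one of the consensus sequences. The 3 printed first are the last pair and one without a match, inside LRRK2. They lie at chr2:113257613-113257812 (PAX8, a PU.1 match), chr14:24332237-24332436 (ADCY4, a RUNX match) and chr12:40208813-40209012 (LRRK2). The other 3 of these 8 (MAPKAPK2, GPAT3 and near CYP11A1) had no match either.
PAX8: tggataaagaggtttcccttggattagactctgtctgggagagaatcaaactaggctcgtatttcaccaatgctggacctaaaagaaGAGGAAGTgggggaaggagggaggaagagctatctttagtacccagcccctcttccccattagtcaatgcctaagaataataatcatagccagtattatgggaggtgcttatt
ADCY4: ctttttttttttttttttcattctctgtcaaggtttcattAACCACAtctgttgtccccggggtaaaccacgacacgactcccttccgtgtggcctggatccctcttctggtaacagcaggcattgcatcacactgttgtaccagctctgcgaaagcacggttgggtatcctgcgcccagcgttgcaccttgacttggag
LRRK2: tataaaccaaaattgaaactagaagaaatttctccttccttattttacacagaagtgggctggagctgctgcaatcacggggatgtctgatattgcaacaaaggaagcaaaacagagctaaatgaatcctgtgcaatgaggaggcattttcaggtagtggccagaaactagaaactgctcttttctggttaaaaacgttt

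The next sequences, picked after their values were seen, carry AP-1 or GFI1, motifs whose shares are compared below between the members and other gained regions. They are the AP-1 member with the highest rank over all 3 lists (chr10:79295703-79295902, an exon of ZMIZ1, 51666 bp from the start of PPIF), the AP-1 member with the highest −log10 p with Corin (chr22:40499258-40499457, an intron of MRTFA, with an IRF match as well) and the GFI1 member with the highest rank over all 3 lists (chr1:112492194-112492393, an intron, 16671 bp from the start of WNT2B).
PPIF: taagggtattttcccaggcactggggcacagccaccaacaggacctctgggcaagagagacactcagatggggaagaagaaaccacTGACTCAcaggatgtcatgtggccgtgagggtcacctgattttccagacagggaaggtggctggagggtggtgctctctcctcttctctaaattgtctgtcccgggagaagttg
MRTFA: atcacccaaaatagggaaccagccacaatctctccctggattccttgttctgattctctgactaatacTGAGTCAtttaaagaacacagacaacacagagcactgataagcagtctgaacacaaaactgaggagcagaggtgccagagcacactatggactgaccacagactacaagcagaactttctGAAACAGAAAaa
WNT2B: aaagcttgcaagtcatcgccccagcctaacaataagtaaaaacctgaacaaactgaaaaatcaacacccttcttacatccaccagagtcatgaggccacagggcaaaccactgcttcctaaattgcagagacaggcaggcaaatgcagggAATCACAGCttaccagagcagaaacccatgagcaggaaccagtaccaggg

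The last sequences hold matches to direct repeats of the kind bound by RAR. They belong to 2 of the highest-ranking members with a repeat of spacer 2 or 5, at chr20:23334314-23334513 (intergenic, 16377 bp from the start of NXT1, with 2 repeats of spacer 5) and chr9:90104039-90104238 (intergenic, 499101 bp from the start of GADD45G, with a spacer of 2). The window near NXT1 is made of similar units one after another, and its 2 matches are units of this array.
near NXT1: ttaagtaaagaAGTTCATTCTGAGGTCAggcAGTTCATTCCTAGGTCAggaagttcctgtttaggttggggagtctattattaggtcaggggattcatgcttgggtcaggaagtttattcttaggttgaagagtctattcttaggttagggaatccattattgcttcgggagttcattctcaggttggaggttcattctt
near GADD45G: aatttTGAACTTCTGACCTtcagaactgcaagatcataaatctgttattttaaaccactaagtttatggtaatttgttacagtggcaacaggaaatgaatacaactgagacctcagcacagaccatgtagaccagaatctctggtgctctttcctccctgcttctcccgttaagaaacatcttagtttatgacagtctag

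Members were a small part of what each treatment gained over DMSO. Union regions called with ATRA and not with DMSO numbered 25755 (16.0% of all union regions), those with Corin 17617 (10.9%) and those with the combination 15472 (9.59%). The members were 5.96% of the ATRA gains, 8.72% of the Corin gains and 9.93% of the combination gains. All gains share the 1 DMSO list, and the members are fixed by those same calls, so these shares describe the lists only. Of 67839 regions called in all 3 treatment lists, 2.26% were absent from DMSO (95% Wilson interval 2.15 to 2.38, counting error over regions only, as for all intervals here). Regions missing from exactly 1 of the other lists were more frequent: 5.63% (5.46 to 5.80) of those called in the other 3 lists were missing with ATRA, 8.20% (8.0 to 8.40) with Corin and 6.25% (6.07 to 6.43) with the combination. The DMSO list was the longest in peaks, at 222491, against 222110 with ATRA, 189896 with Corin and 197548 under both drugs. Its peaks are numbered up to exactly 300000 and its lowest −log10 p is 2.79, against 2.00 in each treatment list, so a weak DMSO peak could be missing where a treatment peak of that strength is listed. With a floor of 2.79 for all lists, chosen after seeing the data, 1524 members were left. The lists are also labelled as filtered by overlap. A DMSO peak could therefore be missing for a reason other than its p, which this floor does not cover.

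The authors' scores were used to describe the strength of the members within each list: −log10 p, fold over the local background, and the percentile of a region by its strongest −log10 p among all regions of its list. Members were weak to middling peaks in every list. The median −log10 p was 25.6 with ATRA (quartiles 14.0 and 47.9), 13.6 with Corin (8.52 and 22.9) and 25.9 with the combination (14.9 and 49.1). In percentiles of the list, the medians were 26.8, 28.6 and 32.0 in the same order. The median fold over the local background was 4.55 with ATRA, 3.02 with Corin and 3.95 with the combination, where regions called in all 4 lists had 11.8, 7.92 and 8.81. A pileup, the number of reads stacked at the summit, was solved from each p and fold, and its median was 70.0 reads with ATRA, 56.0 with Corin and 82.0 with the combination. These values chose the members in part, since a call asks for a p beyond a limit as well as passing the overlap filter, and they support nothing by themselves. Just outside the rule, the 1536 regions called in all 4 lists that were weakest with DMSO had a median −log10 p of 8.78 there, and of 21.9, 10.6 and 15.4 with ATRA, Corin and the combination. Just inside it, the 25 members weakest in any treatment list had medians of 3.91, 4.81 and 8.02. A missing call is not a measure of closed chromatin, since no DMSO signal is listed at these places. In bulk samples, more cells with a region open and a region more open in each cell cannot be told apart.

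The share of regions absent from DMSO fell with strength. Each region called with all 3 treatments was placed by the lowest of its 3 percentiles. Among those whose lowest percentile was 0 to 10, 15.6% (14.2 to 17.1) were absent from DMSO, or 383 of 2450. The share was 3.11% (2.74 to 3.53) at 30 to 40 and 0.603% (0.455 to 0.798) at 40 to 50. Above a lowest percentile of 50, 7 of 39222 regions were absent from DMSO, and above 70 there was none. The classes use the p values of the calls that chose the members. Regions strong in some lists tend to be strong in the others, so the rule itself favours such a fall. The same classes were not made for regions absent from another list, so these shares describe the lists only.

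**Figure D1:**
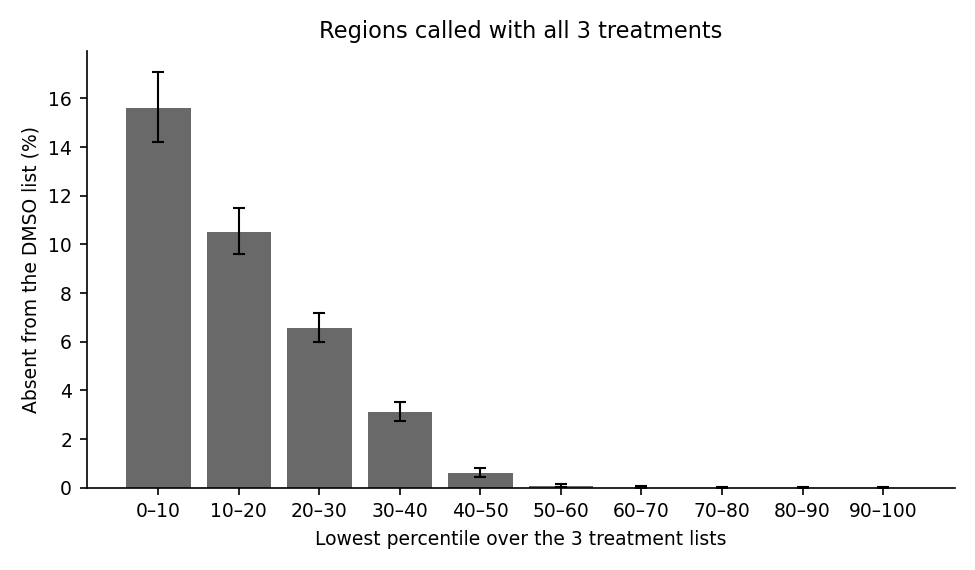
Share of the regions called with all 3 treatments that were absent from the DMSO list (vertical axis, percent), in classes of the lowest percentile of −log10 p over the 3 treatment lists (horizontal axis); bars are shares and error bars 95% Wilson intervals. The share falls from 15.6% in the lowest class to 0.603% at 40 to 50 and is close to 0 above, a fall that the rule itself favours.

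The combination held the highest rank in a larger share of the members than of the regions called in all 4 lists, which are stronger peaks; the ranks come from the p values that chose the members. A member ranked highest with the combination in 560 cases (36.5%, 34.1 to 38.9), with Corin in 511 (33.3%, 31.0 to 35.7) and with ATRA in 465 (30.3%, 28.0 to 32.6). Among the 66303 regions called in all 4 lists, the combination was highest in 14.4% (14.1 to 14.6). The combination ranked between the single drugs for 49.5% of the members and below both for 14.0%, against 51.5% and 34.1% of the regions in all 4 lists. Measured as pileup over the most frequent background of the list, the combination was above both drugs in 25.5% of the members (23.4 to 27.8) and in 7.33% of the other set (7.13 to 7.53). Ranked by fold, the combination was highest in 39.1% of the members and Corin in 30.3%.

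The strength of the members with ATRA said little of that with Corin by −log10 p, and more by pileup. Across the 1536 members the Spearman correlation of −log10 p was 0.07 between ATRA and Corin, 0.54 between ATRA and the combination and 0.48 between Corin and the combination. Across the regions called in all 4 lists the same correlations were 0.76, 0.89 and 0.89. With the pileup relative to the background of the list, the members' values were 0.35, 0.69 and 0.63, and those of the other set 0.80, 0.91 and 0.91. These describe regions of the same lists, whose range of strength differs between the sets, and regions are not replicates.

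The strongest members lay in or near genes of different kinds, among them a transporter, kinases and an enzyme of lipid synthesis. These labels give position only. The member that ranked highest in all 3 lists at once lay in the first part of SLC6A6, the taurine transporter, 1925 bp downstream of a coding start. Its −log10 p was 146 with ATRA, 98 with Corin and 291 with the combination, and its pileup 629, 510 and 1021 reads. All 3 lists had a raised local background there, 20.0, 12.9 and 18.0 times the most frequent background of the list, and the nearest DMSO peak was 1349 bp away. A member in an intron of MAPKAPK2, a kinase downstream of p38, at chr1:206725594-206726124 had a −log10 p of 96.9, 66.5 and 99.6 with ATRA, Corin and the combination. In an intron of GPAT3, an acyltransferase of triglyceride synthesis, the member at chr4:83552790-83553347 had 87.7, 76.4 and 144. The MAPKAPK2 member was at percentiles 55.8, 56.6 and 56.9 of the lists and the GPAT3 member at 53.6, 59.0 and 63.8, so that both ranked highest with the combination and lowest with ATRA, although their −log10 p was lowest with Corin, where values run lower. The member in an intron of ANKRD11, a chromatin regulator, at chr16:89362204-89362624 had a −log10 p of 140, 55.7 and 188. In an exon of PAX8-AS1, within the gene of the transcription factor PAX8, the member at chr2:113257454-113257870 had 137, 49.0 and 97.8. This one ranked highest with ATRA (percentiles 62.9, 51.3 and 56.5), and it holds the PU.1 match printed above.

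The remaining members of the 12 that ranked highest in all 3 lists had a −log10 p of 69.5 to 108 with ATRA, 41.0 to 72.8 with Corin and 62.9 to 229 with the combination. The member near CYP11A1, the enzyme that starts steroid synthesis, was intergenic at chr15:74399166-74399426, 31648 bp upstream of the coding start. Those in RPS6KA1 (chr1:26538093-26538400), a kinase of the ERK pathway, and in POFUT1 (chr20:32231848-32232267), which adds fucose to Notch, were intronic. The member in ADCY4, an adenylyl cyclase, was at chr14:24332231-24332453, 147 bp from an annotated start, and its 3 values were close to each other, at 78.0, 72.8 and 71.0. The member at chr7:36067828-36068614, intergenic and 84803 bp from the start of EEPD1, had 104, 48.3 and 62.9. A member at chr2:27897619-27898149, inside BABAM2 (a subunit of a BRCA1 complex) and MRPL33 (a mitochondrial ribosomal protein), had 71.2, 41.0 and 128. Of these 12 members, 9 had a local background of at least 2 times the list's most frequent one in all 3 lists, and 3 had a DMSO peak within 1 kb. The 3 without it were those in LRRK2, near EEPD1 and in BABAM2.

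Members picked as strongest in 1 list had lower values in another, which the pick itself favours. The highest −log10 p with ATRA, 856, belonged to a member at chr2:172339212-172340946, in an intron of the long noncoding gene ENSG00000232555 and 87708 bp from the start of the integrin gene ITGA6. It had 27.4 with Corin and 750 with the combination, on a background 14.2, 9.56 and 13.5 times the usual one. The member at the start of MAP3K11 (in an annotated exon and UTR), a kinase that activates JNK, at chr11:65610972-65611313 had 400, 23.8 and 185, with a DMSO peak 215 bp away. An intronic member of SRPK1, a kinase of splicing factors, at chr6:35849893-35851530 had 334, 3.43 and 50.1, and no base of it was covered in all 3 lists. In percentiles these members were at 94.6, 84.0 and 80.9 of the ATRA list and at 41.1, 38.6 and 1.64 of the Corin list, where the first pair was still above the members' upper quartile of 38.0.

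The highest −log10 p with Corin, 170, was that of the member printed above in an intron of MRTFA, a coactivator of serum response factor, at chr22:40499154-40499587, which had 9.09 with ATRA and 113 with the combination. A member in an intron of APOH, a plasma lipoprotein gene, at chr17:66246269-66246928 had 153 with Corin, 4.52 with ATRA and 17.9 with the combination. The member 12965 bp from the start of CPPED1, a phosphatase gene, at chr16:12816329-12817269 had 128, 26.6 and 143. The background at these members was at or near the most frequent one of each list, at most 1.41 times it. With the combination, the member with the next highest −log10 p after the one near ITGA6 was 2801 bp from the start of PIGV, a gene of membrane anchor synthesis, at chr1:26783960-26784426. It had 505 there, 21.4 with ATRA and 57.2 with Corin, on a background 11.7, 16.3 and 7.70 times the usual one in the same order.

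**Figure D2:**
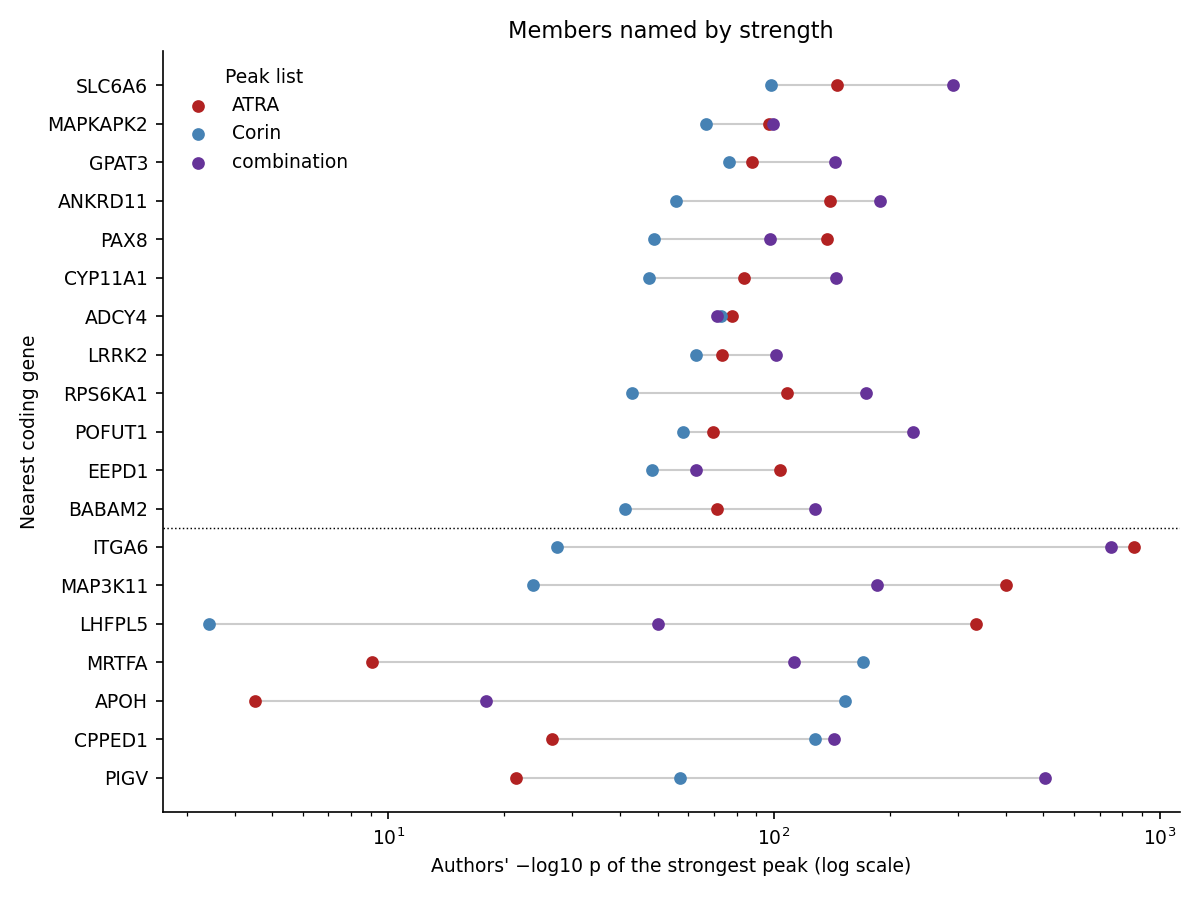
Authors' −log10 p (horizontal axis, log scale) of the strongest peak of each named member in the ATRA, Corin and combination lists, labelled by the nearest coding gene (LHFPL5 for the member inside SRPK1). Above the dotted line are the 12 members ranked highest in all 3 lists, with 41.0 or more in every list, and below it the further members strongest in 1 list, where values range from 3.43 to 856.

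The peaks of the 3 treatments fell on the same place within most members. The rule asks for peaks in the same merged region and not for shared bases. In regions of this width it still favours close summits, so these distances describe the members only. Summits of ATRA and Corin were a median of 19 bp apart, and within 50 bp in 76.2% of the members (74.0 to 78.2). For ATRA and the combination the median was 12.5 bp, and for Corin and the combination 14.5 bp. In the regions called in all 4 lists, summits of ATRA and Corin were within 50 bp in 85.5% (85.3 to 85.8). All 3 lists covered a common stretch of at least 100 bp in 1506 members, and in 20 members no base was covered by all 3. The members had a median width of 528 bp, against 897 bp for regions in all 4 lists.

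Many members had a DMSO peak not far away. The median distance to the nearest one was 3165 bp (quartiles 1182 and 7507), and 184 members (12%) had one within 500 bp. This is close to other gained regions: 10.3% of those gained with ATRA and the combination only, and 12.9% of those gained with Corin and the combination only, had one so near. In 283 members (18.4%) the local background was at least 2 times the list's most frequent one in all 3 lists. Of these, 43.1% (37.5 to 48.9) had a DMSO peak within 1 kb, against 16.4% (14.5 to 18.6) of the other members. No such share was computed for other regions. The members' median local background was 1.08 to 1.14 times the most frequent one, over the 3 treatment lists. For the regions called in all 4 lists it was 1.82 to 2.30 times in the same lists, so a raised background was not particular to the members. The part of the local background in the missing DMSO calls was not tested.

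Members were less often at promoters than union regions in general, and they were spread over the genome. Their share of the union regions of a chromosome ranged from 0.571% on chromosome 21 (0.327 to 0.995) to 1.29% on X (0.996 to 1.67), with none of 3 on Y. An annotated transcription start was within 1 kb of the summit for 171 members (11.1%, 9.66 to 12.8), against 18.2% of all union regions (18.0 to 18.4). Another 810 members (52.7%) were in introns, 490 (31.9%) between genes and 65 (4.23%) in exons, against 48.6%, 28.3% and 4.82% of all union regions. Other gained regions had like promoter shares, of 10.5% (9.67 to 11.3) with ATRA and the combination, 11.5% (10.3 to 12.8) with Corin and the combination and 11.2% (10.5 to 12) with the combination alone. The nearest start belonged to a coding transcript in 53 of these 171 members and to a long noncoding RNA in 41. Among the coding ones, picked after the values were seen, were CFLAR, an inhibitor of death receptor signalling, and BUB1, a kinase of the mitotic checkpoint. The CFLAR member, 14 bp from the start at chr2:201128984-201129467, had a −log10 p of 61.1, 36.2 and 77.8 with ATRA, Corin and the combination. The BUB1 member, 75 bp from the start at chr2:110675188-110675507, had 45.0, 31.5 and 109.

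The sequence of the members was poor in GC and in CpG. The median GC content of the 200 bp at the summit was 44% (quartiles 39.5 and 49.5), against 49.5% over all union regions. Regions gained with ATRA and the combination had 43.0%, and those gained with Corin and the combination 52.5%. The ratio of CpG dinucleotides to the number that base composition gives was at least 0.6, a level typical of CpG islands, in 3.06% of the members and in 9.73% of all union regions. Other gained regions were as low, at 1.32% with ATRA and the combination only, 3.25% with Corin and the combination only, 3.01% with the combination alone and 2.37% with each drug but not the combination.

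Motifs of both single-drug patterns were found in the members. The motifs, none of which contains another, were searched on both strands of the 200 bp at the strongest summit. The main ones were AP-1 (TGAGTCA), PU.1 (GAGGAAGT), C/EBP (TTGCNNAA), RUNX (TGTGGTT), the interferon response motif of the IRF factors, and GFI1 (AATCACNGC). Further ones were CRE (TGACGTCA), KLF/SP (GGGCGGGG) and STAT (TTCCNGGAA), with the E-box (CACGTG) of MYC-like factors. The GATA motif (AGATAA), those of CTCF, NF-kB and NRF1, and direct repeats of spacer 1, 2 and 5 completed the search. A match is a description of letters and not a bound site. At least 1 of the first 6 motifs was found in 47.7% of the members (45.2 to 50.2) and in 36.1% of all union regions (35.8 to 36.3). The share was 45.0% with ATRA and the combination and 32.9% with Corin and the combination.

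AP-1 was found in 11.7% of the members (10.2 to 13.4). It was rare in regions gained with ATRA and the combination only, at 3.33% (2.87 to 3.86), more frequent with Corin and the combination only, at 15.3% (13.9 to 16.8), and at 9.58% in all union regions. PU.1 had the opposite order. It was found in 10.8% of the members (9.35 to 12.5), in 15.4% (14.4 to 16.4) with ATRA and the combination only, in 2.47% (1.92 to 3.17) with Corin and the combination only, and in 6.73% of all union regions. For both motifs the members therefore lay between the single-drug patterns, with intervals that did not overlap either of them around the strongest summit. Around the Corin summit, AP-1 was found in 13.4% of the members (11.8 to 15.2) and in 15.6% (14.2 to 17.1) of the regions with Corin and the combination only, and these intervals overlap. Around the ATRA summit it was found in 10.1% of the members (8.68 to 11.7) and in 3.25% (2.80 to 3.77) of the regions with ATRA and the combination only. AP-1 and PU.1 occurred in the same window in 18 members (1.17%, 0.743 to 1.84), against 0.329% (0.206 to 0.527) and 0.371% (0.195 to 0.703) in these patterns and 0.480% in all union regions. In the regions gained with each drug but not the combination, AP-1 was at 16.0% (13.4 to 18.9) and PU.1 at 6.51% (4.88 to 8.63).

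C/EBP was the most frequent of these motifs in the members, at 22% (20.0 to 24.1). This was above the 17.2% (16.2 to 18.2) with ATRA and the combination only, the 11.6% (10.4 to 12.9) with Corin and the combination only and the 14.5% (14.3 to 14.6) of all union regions. It was close to the 21.2% (18.2 to 24.4) of the 676 regions gained with each drug alone and not with the combination. GFI1 was found in 32 members (2.08%, 1.48 to 2.93), in 0.891% (0.668 to 1.19) with ATRA and the combination only, in 1.98% (1.49 to 2.61) with Corin and the combination only and in 0.627% (0.590 to 0.667) of all union regions. IRF was at 4.49% (3.56 to 5.65) in the members and 3.07% of all union regions, below the 7.20% (6.53 to 7.94) with ATRA and the combination only and above the 2.02% (1.53 to 2.66) with Corin and the combination only. RUNX was at 9.24% (7.90 to 10.8) in the members, an interval that includes the 8.27% of all union regions and the 9.18% with ATRA and the combination only. GATA was found in 10.9% of the members (9.41 to 12.5), in 12.8% (11.9 to 13.8) with ATRA and the combination only, in 7.08% (6.13 to 8.17) with Corin and the combination only and in 8.02% of all union regions.

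The promoter-type motifs were scarce. KLF/SP was found in 1.17% of the members (0.743 to 1.84) against 4.42% of all union regions, E-box in 1.76% (1.21 to 2.55) against 3.67%, and NRF1 in none, which allows up to 0.249%, against 0.137%. In other gained regions KLF/SP was low too, at 0.523% with ATRA and the combination only and 1.73% with Corin and the combination only. With the combination alone it was at 1.84%, and with each drug but not the combination at 1.33%. E-box was at 1.82%, 3.46%, 3.42% and 1.33% in the same order, and NRF1 at most at 0.0194%. CTCF, the insulator protein, had a match in 2.60% (1.92 to 3.53), close to the 3.08% of all union regions and above the 0.891% (0.668 to 1.19) and 0.412% (0.224 to 0.757) of the patterns with ATRA or Corin and the combination only. In the regions gained with each drug but not the combination CTCF was at 2.07% (1.24 to 3.45), which overlaps the interval of the members.

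**Figure D3:**
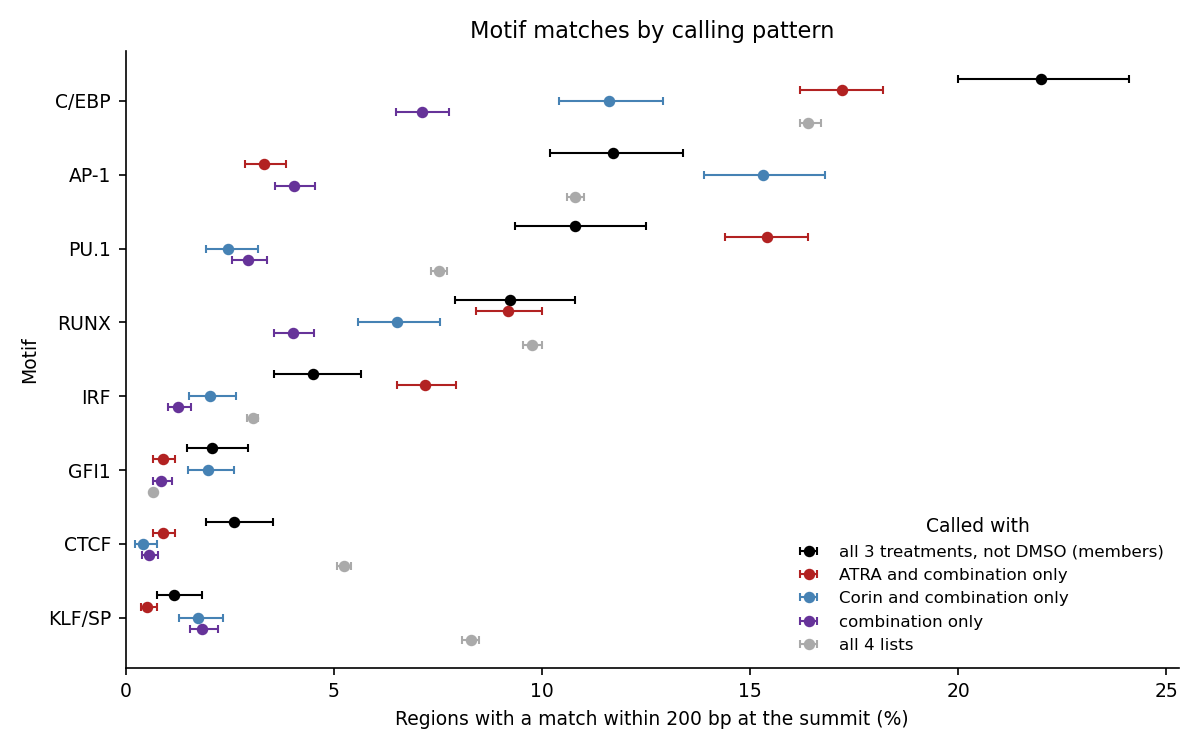
Share of regions with a motif match within 200 bp at the summit (horizontal axis, percent) for 8 motifs, by the lists in which a region was called; points are shares and bars 95% Wilson intervals. Members (black) lie between the ATRA pattern (red) and the Corin pattern (blue) for AP-1 and PU.1, and above both for C/EBP, at 22%.

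Matches were searched within 100 bp of the summit, so their distance from it is limited by the search. The median distance of the nearest match from the summit was 19 bp for PU.1, 28.5 bp for AP-1, 34.5 bp for RUNX, 35.0 bp for C/EBP, 43.0 bp for IRF and 44 bp for GFI1. Within 50 bp lay the nearest match of 84.9% of the members with PU.1 (78.7 to 89.6), 72.8% of those with AP-1 (65.9 to 78.8), 66.9% with RUNX (58.8 to 74.1) and 65.4% with C/EBP (60.2 to 70.3). For GFI1 the share was 59.4% (42.3 to 74.5) and for IRF 59.4% (47.6 to 70.2). Other regions were not measured in this way, so these shares have no baseline and centring of the motifs was not tested.

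Direct repeats were few. The spacer-2 repeat was found in 13 members (0.846%, 0.495 to 1.44), against 0.170% (0.151 to 0.191) of all union regions and 0.407% (0.266 to 0.621) with ATRA and the combination only. The spacer-5 repeat was found in 2 members (0.130%, 0.0357 to 0.474), against 0.484% (0.328 to 0.714) with ATRA and the combination only and 0.0905% of all union regions. In 6 of the 13 members the spacer-2 repeat read AGGTCAGGAGTTCA, and so it did in 118 of the 274 union regions with this repeat. As background, that stretch resembles part of the consensus of Alu, an abundant human repeat. Repeats were not annotated here, and their part was not tested. The member near NXT1, an mRNA export factor, had a −log10 p of 186 with ATRA, 18.8 with Corin and 279 with the combination. The member 499101 bp from the start of GADD45G, a stress-response gene, had 58.5, 14.9 and 216 in the same order. Both printed members with a repeat ranked lowest in the Corin list, at percentiles 34.4 and 30.5 against 69.4 and 44.8 with ATRA.

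Within the members, the shares of AP-1 and PU.1 differed with the list that ranked them highest. Of the 180 members with AP-1, 128 (71.1%, 64.1 to 77.2) ranked higher with Corin than with ATRA, against 53.8% of all members (51.3 to 56.3). Of the 166 with PU.1, 59 (35.5%, 28.7 to 43.1) did. The median percentile of AP-1 members was 20.3 with ATRA and 36.2 with Corin, and that of PU.1 members 38.0 and 29.8. Seen the other way, AP-1 was found in 20.2% (16.9 to 23.9) of the members that ranked highest with Corin, 7.53% (5.46 to 10.3) of those highest with ATRA and 7.50% (5.60 to 9.98) of those highest with the combination. For PU.1 the shares were 6.07% (4.31 to 8.48), 14.2% (11.3 to 17.7) and 12.3% (9.85 to 15.3). C/EBP was even, at 22.5%, 22.8% and 20.9%. The ranks come from the lists that chose the members, so these values describe how the members differ among themselves.

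**Figure D4:**
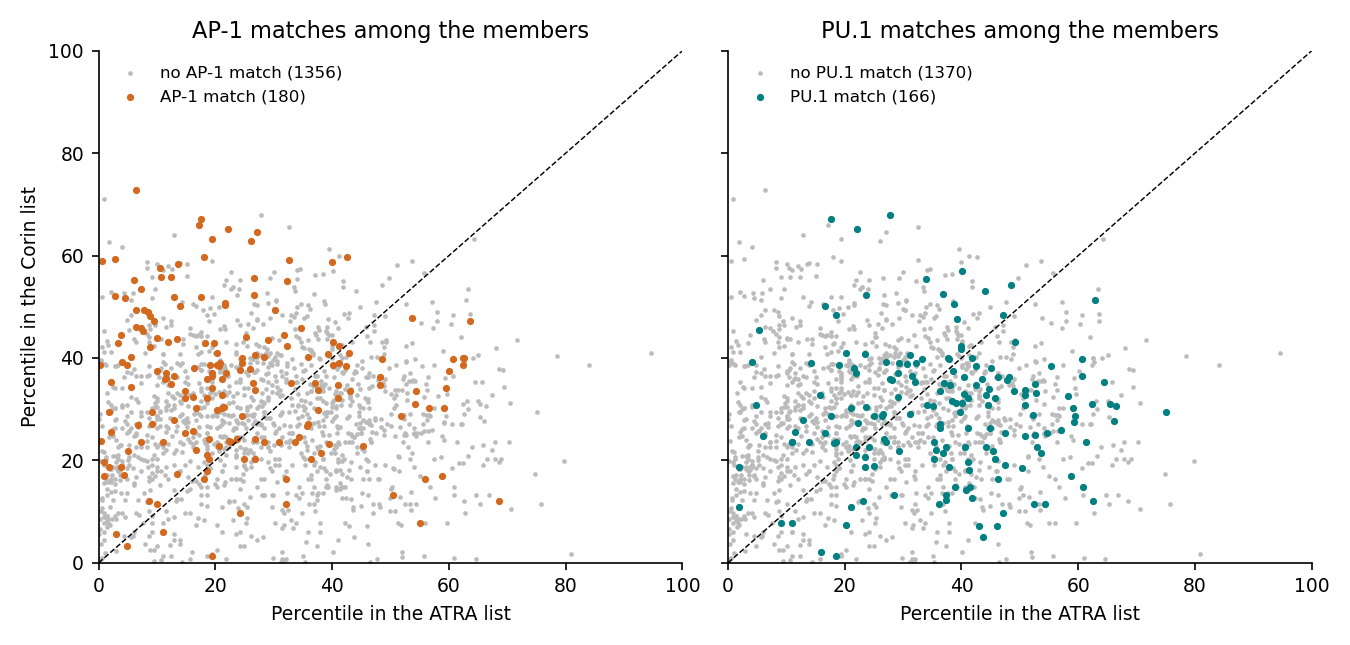
Percentile of each of the 1536 members in the ATRA list (horizontal axis) and in the Corin list (vertical axis), with members holding an AP-1 match (left, 180) or a PU.1 match (right, 166) in colour; the dashed line marks equal percentiles. AP-1 members lie mostly above the line (71.1%) and PU.1 members mostly below it (35.5% above). Matches were searched around the strongest summit over the lists, which depends on the same p values.

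Of 20033 protein-coding genes, 1186 (5.92%) had a member within 10 kb of the gene body, and 1037 members were so placed. The share of all union regions so placed was not computed. Of 6 lists of genes, 113 genes in all, 2 genes had a member within 10 kb. FAS, the death receptor, held a member at chr10:88974648-88975837. It lay 21314 bp from the start of the longest annotated FAS transcript, where STAMBPL1 (an exon) and ACTA2 overlap the gene, so the gene it belongs to is uncertain. It had a −log10 p of 57.7 with ATRA, 11.9 with Corin and 27.4 with the combination, and an IRF match. RXRA, the retinoid X receptor that pairs with RAR, held one at chr9:134358145-134358912, in an intron, with 7.63, 7.47 and 12.3. The list that holds FAS, of cell cycle arrest and apoptosis, had 1 of 19 genes with a member, and the retinoic acid response list, which holds RXRA, had 1 of 20. None of the 18 AP-1 and monocytic factor genes, 13 CoREST genes, 25 myeloid differentiation genes and 18 neuronal REST target genes had one. Counted by region, 2 of 899 union regions within 10 kb of the listed genes were members (0.222%, 0.0610 to 0.808), below the 0.952% of all union regions.

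Within 50 kb, 2454 of all coding genes (12.2%) had a member, and so had 18 of the listed genes. Counted by region, 19 of 2045 regions were members (0.929%, 0.596 to 1.45), close to the 0.952% of all union regions. The retinoic acid response list had 7 of its 20 genes with a member in this range, and 8 of 399 regions (2.01%, 1.02 to 3.91). Among these genes were CYP26A1 and CRABP2 (an enzyme that degrades retinoic acid and a protein that carries it), ASB2 (a ubiquitin ligase subunit), STRA6 (a retinol transporter), CD38 and RXRA. The CYP26A1 member had a −log10 p of 25.8, 24.5 and 91.0 with ATRA, Corin and the combination. The ASB2 member had 44, 46.8 and 144, and the CRABP2 member 43.5, 22.1 and 64.0. These 3 were highest with the combination, while the STRA6 member had 23.4, 5.95 and 12.6. In the myeloid differentiation list 2 of 25 genes had a member in this range: SPI1, which encodes PU.1, with 44.5, 6.85 and 42.4, and IRF8, a monocytic factor, with 8.53, 26 and 42.0. The cell cycle arrest and apoptosis list had 4 of 19 genes (21.1%), the neuronal REST target list 3 of 18 (16.7%), the CoREST list 2 of 13 (15.4%) and the AP-1 and monocytic factor list 0 of 18. By region the shares of these lists were 1.1% (0.429 to 2.80), 1.24% (0.422 to 3.58), 0.645% (0.177 to 2.32) and 0 of 295, which allows up to 1.29%, and that of the myeloid differentiation list 0.457% (0.125 to 1.65).

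Another member was within 10 kb of 5.34% of the members (4.32 to 6.58), within 50 kb of 16.7% (14.9 to 18.6) and within 100 kb of 25.5% (23.3 to 27.7). No such share was computed for other regions, so clustering of the members was not tested. Within 10 kb, 11 coding genes had 3 or more members. PLCB1, a phospholipase C of 891 kb, had 4 members among 70 union regions, in introns, which were not alike: the one 79.4 kb from the gene start, with AP-1 and RUNX matches, had a −log10 p of 16.5 with ATRA, 115 with Corin and 90.5 with the combination, and the one at 736 kb had 141, 42.0 and 23.2. The other genes, with 3 members each, were ARHGAP26, ART3, CTIF, INSR, LRRK2, MARCHF1, PDGFC, PTPRJ and PPP3R1 with the overlapping gene ENSG00000273398, which share their members. Most are long genes with many regions, so that members were 3.75% of the regions near ARHGAP26 and 5.17% near CTIF, an initiation factor. Near INSR, the insulin receptor, 2 of the 3 members had a higher −log10 p with ATRA and the combination than with Corin, at 315 and 249 against 8.62 in the region downstream of the gene and 62.8 and 61.1 against 7.28 in an intron with PU.1 and C/EBP matches. The third had 7.44 and 14.9 against 8.22. Near PTPRJ, a receptor tyrosine phosphatase, 2 of the 3 members were highest with the combination, at 109 and 77.6, against 34.8 and 22.9 with Corin and 8.43 and 13.0 with ATRA. The 3 members of MARCHF1, a ubiquitin ligase that acts on MHC class II, had a −log10 p of at most 34.0 in the 3 lists.

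LRRK2 had the highest share of these genes, with 3 members among 9 union regions (33.3%), and was chosen for display for that reason. It encodes a large kinase of immune cells that is mutated in familial Parkinson's disease. The members lay in the first part of the gene, 5.58, 12.2 and 19.4 kb from its start. At 5.58 kb the −log10 p was 37.7 with ATRA, 22.4 with Corin and 42.0 with the combination. At 12.2 kb, where the summit also falls in an exon of the noncoding LINC02471, it was 73.3, 62.7 and 101, on the most frequent background of each list (pileups of 106, 111 and 153 reads), with the nearest DMSO peak 7494 bp away. At 19.4 kb, with a C/EBP match, it was 10.9, 63.6 and 30.3. So 2 of the 3 were highest with the combination and the other with Corin. The member at 19.4 kb lay close to a region at 20.3 kb that was called with DMSO. That region had a −log10 p of 45.7 with DMSO, 182 with ATRA, 36.6 with Corin and 110 with the combination. The 6 regions called with DMSO included one at 28.2 kb with like values in all 4 lists (289 with DMSO, 293 with ATRA, 271 with Corin and 305 with the combination), while those at -3.91 and -1.72 kb, before the gene, had 15.8 and 16.4 with DMSO and 34.8 and 28.8 with the combination.

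**Figure D5:**
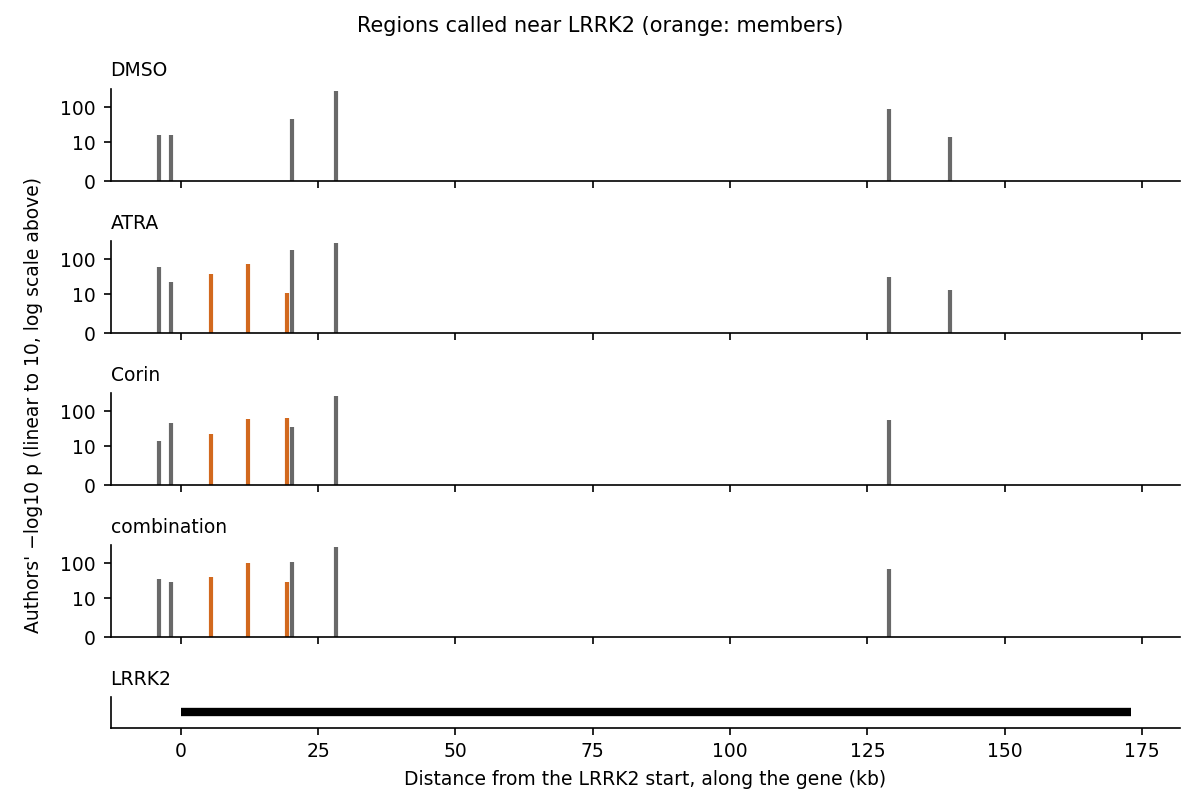
Authors' −log10 p (vertical axes, linear to 10 and on a log scale above) of the union regions near LRRK2 in the DMSO, ATRA, Corin and combination lists, by distance of the summit from the gene start (horizontal axis, kb); the black bar is the gene. The 3 members (orange) at 5.58, 12.2 and 19.4 kb appear in the treatment lists and not with DMSO, and the region at 28.2 kb is alike in all 4.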

How the data were processed

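The ATAC-seq series has 8 samples of U-937 cells, a pair for each of the 4 treatments. Per the submitters' processing notes, cutadapt, Bowtie2, SAMtools, Picard and MACS2 were used with the build hg38; versions are not given in the sources used here. The authors deposited 1 narrowPeak list per group, which pools both samples. The labels of the lists name an overlap step (naive overlap) and a filter, whose settings are not stated here. Per the narrowPeak layout of the deposited files, the columns used are a fold over local background (a ratio), a p and a q as −log10 values, and a summit offset in bp. The deposited score column, whose making by the authors is not stated, was not used. These are the authors' values and rank peaks within their own list. Read depth is unknown and limits the weak calls; the most frequent background was 12.80, 9.12, 13.14 and 13.94 reads for DMSO, ATRA, Corin and the combination.

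Union regions were formed by merging overlapping peaks (1 bp or more) on 24 chromosomes. The pileup was solved from p (Poisson) and fold with 1 added to pileup and background, and was whole within 0.05 reads for 99.96% or more of the peaks of each list. Promoters lie within 1 kb of a GENCODE release 44 start, and 17 motifs were searched in the reference sequence. Python 3.11.15 with numpy 2.4.6, pandas 2.3.3, scipy 1.17.1 and pysam 0.24.0 was used. The steps were tested on simulated data. With 1 list per group, no test between treatments was made, and shares carry 95% Wilson intervals. Named were the 12 members with the highest lowest percentile over the 3 treatment lists, the 3 strongest in each list, listed genes with a member within 10 kb and coding genes with 3 or more. The members, lists and motifs were chosen with earlier results of these data known. Alternatives were limits on p and q, merging, distance to DMSO peaks, equal list lengths, windows, summits, promoter limits and gene distance, and, added after seeing the data, the single-drug patterns around the same summits, a shared floor and the removal of members with raised background. Some named members and sequences are not reported here.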

Additional observations from a re-analysis of the deposited data

How the results depend on the processing

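The number of members stayed within 1.5 times 1536 under every alternative run, between 1191 (−log10 q of at least 5 in the treatment lists alone) and 1524 (the shared floor of 2.79). With all lists reduced to their 94917 strongest regions there were 1454 members, of which 1053 overlapped the members reported. The promoter share of 11.1% was 21.6% with a limit of 2.5 kb (all union regions 28.8%), 4.17% with coding transcripts only (all union regions 10.5%) and 9.50% without members of raised local background. In windows of 100 bp the shares were 8.27% for AP-1, 8.79% for PU.1, 13.3% for C/EBP and 1.17% for GFI1, against 6.77%, 5.18%, 7.98% and 0.323% of all union regions. C/EBP was at 29.2% in windows of 300 bp (all union regions 19.1%), and AP-1 at 10.1% around the ATRA summit and 13.4% around the Corin summit. Of 91 values of the 13 other motifs under alternatives, 78 stayed within the interval of the main share and 13 moved. Ranked by fold, the share highest with Corin was 30.3% and with the combination 39.1%. Members near listed genes rose from 2 to 19 with a limit of 50 kb, and the median CpG ratio from 0.130 to 0.145 over whole regions. No paired analysis was possible because each list pools both samples of its group, and for the same reason no replicate could be left out. Read depth is unknown, and a region is a member through the lack of 1 DMSO call.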
